A study of Mus musculus with 13 samples.

Results

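Transcript levels of 10 genes listed as mammary epithelial transcription factors were followed across mammary tumors and lungs of mice. The 10 genes, Tfap2c, Tfap2a, Elf5, Gata3, Foxa1, Tbx3, Tbx15, Esr1, Pgr and Sox10, were taken by symbol from the annotation of the deposited gene IDs, and all 10 were found among 46679 IDs. Total RNA depleted of ribosomal RNA was sequenced from 13 libraries of 11 tissue samples, all from female FVB mice aged 10 weeks. The mammary tumors (n = 3 mice: 6877, 6880 and 6881) grew for 2 weeks after 250000 Met1 cells were placed in the inguinal fat pad of mice aged 8 weeks. The tumor-bearing lungs (n = 4 mice: 6877, 6879, 6880 and 6881) came from mice with such a tumor, and the normal lungs (n = 4 mice: 6886, 6887, 6888 and 6893) from mice without one. Met1 is a single mouse mammary carcinoma line derived from an FVB animal with a polyoma middle T transgene in its mammary epithelium, so the 3 tumors are 3 grafts of 1 line and not 3 independent cancers, and whole tissue was used. No genotype other than FVB and no drug is given for any group. All tumors belong to preparation batch 2, as do 1 tumor-bearing lung (mouse 6877) and the normal lungs of mice 6887 and 6893. The other lungs belong to batch 1, and the lungs of normal mice 6886 and 6888 have a library in each batch.

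The mammary gland is lined by luminal cells, of which some carry receptors for estrogen and progesterone and others form milk, and by contractile basal cells. GATA3 and FOXA1 sustain the luminal lineage and act with the estrogen receptor on chromatin, ELF5 directs the milk-forming alveolar cells, and the AP-2 factors TFAP2A and TFAP2C bind many of the same regulatory regions in breast cells. TBX3 is needed for the gland to form, and SOX10 marks mammary stem and progenitor cells in the mouse as well as Schwann cells and melanocytes. Several of these proteins also serve the lung: FOXA1 acts in its epithelium, and TBX3 in its mesenchyme during development.

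Libraries held 8321037 to 13982903 estimated counts, of which 45.6 to 69.5% lay in protein-coding genes. The labels of the tissues were checked against epithelial genes. Epcam, a surface protein of epithelia, averaged 346 ± 88.5 CPM in tumors (SD, n = 3), 29.4 ± 6.90 in tumor-bearing lungs and 34.2 ± 2.85 in normal lungs (SD, n = 4 each). CPM are counts scaled to library size with trimmed mean (TMM) factors, and they compare a gene between libraries. Of 10 general epithelial genes 7 were called higher in tumors against either kind of lung, 1 was called lower against tumor-bearing and 2 against normal lungs. The keratin Krt19 was among those called lower, with 3.97 to 4.67 CPM in tumors, against 81.8 to 98.9 in tumor-bearing and 72.6 to 110 CPM in normal lungs. Of 10 tested mammary luminal genes 6 were called higher and 2 lower in each comparison. The milk protein gene Csn3 stood at 255 to 393 CPM in tumors, against 0.182 to 0.919 CPM in normal lungs, while the mucin Muc1 averaged 3.53 CPM in tumors, against 98.8 in tumor-bearing and 85.7 CPM in normal lungs. Of 6 tested mammary basal genes 2 were called higher and 3 lower in each comparison, and the 9 listed summed to 205 to 231 CPM in tumors, 623 to 938 CPM in tumor-bearing and 613 to 920 CPM in normal lungs. The largest parts of the lung sums were Vim, with means of 463 in tumor-bearing and 437 CPM in normal lungs, and Mylk, with 278 and 265 CPM. Other genes of the list went the other way, such as Trp63, with means of 6.08 CPM in tumors, 0.497 in tumor-bearing and 0.208 CPM in normal lungs. The basal keratin Krt14 averaged 7.24 ± 3.24 CPM in tumors (SD, n = 3), against 0.109 ± 0.0893 in tumor-bearing and 0.122 ± 0.130 CPM in normal lungs (SD, n = 4 each), and Krt5 was at 0.234 to 0.700 CPM in tumors, 0 to 0.0642 in tumor-bearing and 0 to 0.153 CPM in normal lungs. Sftpc, the surfactant protein of alveolar type 2 cells, averaged 4.67 CPM in tumors, 4024 CPM in tumor-bearing lungs and 6666 CPM in normal lungs.

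The main pattern was a split of the 10 factors by tissue. Tfap2c, Tfap2a, Elf5, Gata3, Tbx15 and Sox10 were higher in tumors than in either kind of lung, Tbx3 and Pgr were lower in tumors, and Foxa1 and Esr1 did not pass the test in either comparison. For Tfap2c, Tfap2a, Tbx15 and Sox10 the tumors stood at 36.7 to 89.5 CPM while no lung exceeded 1.06 CPM. Elf5 and Gata3 were present in lung as well and several-fold higher in tumors. Against normal lungs, edgeR's quasi-likelihood test with Benjamini-Hochberg adjustment over 18297 genes (adjusted p under 0.05) called 6 of 10 members higher and 2 lower, where 24.5% of all tested genes were called higher and 24.7% lower. Against tumor-bearing lungs the same 6 were called higher and the same 2 lower, where 22.6% of all genes were called higher and 23.7% lower. All tumors but only 1 tumor-bearing lung were in batch 2, so the batch term rests on the lungs alone and is assumed to hold for tumors. The groups of the 8 called factors did not overlap in CPM in either comparison, as was so for 27.2% of all genes in the higher and 26.4% in the lower direction against normal lungs, and for 26.6% and 27.4% against tumor-bearing lungs. The median log2 fold change of the 10 was 2.44 against normal lungs and 2.11 against tumor-bearing lungs, where the medians of all tested genes were −0.04 and −0.10. The 2 comparisons share the tumors. Tfap2c, Tfap2a, Tbx15 and Sox10 did not pass the filter on low counts in the lungs alone. They entered these tests through the tumors, where they were high. A call of higher was thus all but set for them, and their calls add no support beyond the levels. The same holds for their part in the counts of groups apart and in the medians of the 10. Log2 fold changes of the other 6 ran from −5.64 (Tbx3) to 2.59 (Elf5) against normal lungs. Against tumor-bearing lungs they ran from −5.24 to 2.25 for the same 2 genes.

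**Figure D1:**
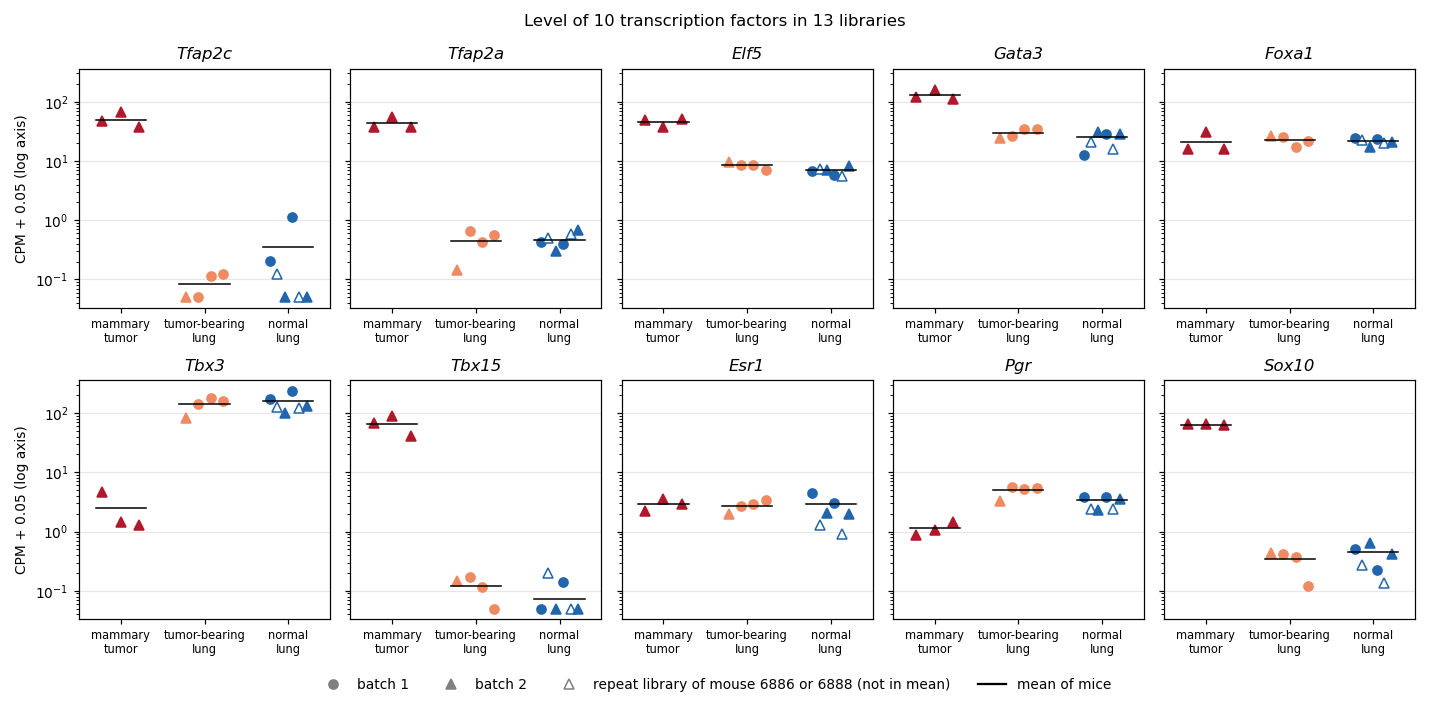
Level of each of the 10 transcription factors in every library, as CPM plus 0.05 on a log axis; circles are batch 1, triangles batch 2, open triangles the repeat libraries of normal mice 6886 and 6888, and lines the means over mice. Tfap2c, Tfap2a, Tbx15 and Sox10 sit at 36.7 CPM or more in all 3 tumors and at 1.06 CPM or less in all lungs, Tbx3 shows the opposite order, and Foxa1 and Esr1 overlap between tissues.

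Levels between genes were compared as TPM, which divide by transcript length. In tumors Gata3 led with 14.9 ± 0.893 TPM, followed by Elf5 with 3.14 ± 0.848, Tfap2c with 2.20 ± 0.422, Tbx15 with 1.81 ± 0.530, Sox10 with 1.75 ± 0.206 and Tfap2a with 1.20 ± 0.0931 TPM (SD, n = 3 each). Foxa1 followed at 0.446 ± 0.115 TPM, and Esr1 (0.0695 TPM), Tbx3 (0.0606 TPM) and Pgr (0.0194 TPM) closed the order. The ranges over the 3 tumors overlapped between the neighbours Elf5 and Tfap2c, Tfap2c and Tbx15, Tbx15 and Sox10, and Esr1 and Tbx3, so that these pairs could not be ordered beyond their spread. In tumor-bearing lungs Gata3 (3.07 ± 1.14 TPM) and Tbx3 (2.91 ± 1.29 TPM) led with overlapping ranges, followed by Elf5 at 0.488 ± 0.150 and Foxa1 at 0.424 ± 0.0930 TPM (SD, n = 4 each). In normal lungs Tbx3 (5.37 ± 2.90 TPM) and Gata3 (3.70 ± 1.04 TPM) led, again overlapping, followed by Foxa1 at 0.650 ± 0.259 and Elf5 at 0.610 ± 0.125 TPM (SD, n = 4 each). Tfap2c, Tfap2a, Tbx15 and Sox10 held the last 4 places in both kinds of lung, none with a mean above 0.0221 TPM. The most abundant gene of a library took 21.6 to 45.5% of its TPM, and TPM move with that share, so libraries were compared on the CPM scale.

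The AP-2 factors came first by role, since they bind regulatory DNA of luminal genes and are used as markers of mammary epithelium. Tfap2c stood at 47.0, 66.2 and 36.7 CPM in tumors 6877, 6880 and 6881. It stood at 0, 0, 0.0642 and 0.0724 CPM in tumor-bearing lungs 6877, 6879, 6880 and 6881, and at 0.153, 0, 1.06 and 0 CPM in normal lungs 6886, 6887, 6888 and 6893. Every tumor lay above every lung, and the 8 lungs together held 16 counts, of which 12 came from the batch 1 library of normal lung 6888. The ratio of summed counts, scaled for depth, was 1204 against tumor-bearing lungs (1715 against 2 counts; exact 95% counting interval 333 to 9949) and 170 against normal lungs (1715 against 14 counts; 101 to 311). Without mouse 6888 the ratio to normal lungs was 903 (250 to 7464), and the batch 2 library of that same lung held 0 counts. These intervals describe counting error only: the reads carry no molecular identifiers, and PCR copies are not separate molecules. In whole tissue, fewer cells of a type and less RNA per cell cannot be told apart.

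Tfap2a, the second AP-2 gene of breast epithelium, stood at 37.9, 54.3 and 38.1 CPM in the same tumors. It was at 0.0964, 0.620, 0.385 and 0.507 CPM in tumor-bearing lungs and at 0.383, 0.254, 0.355 and 0.637 CPM in normal lungs. All lungs held a few counts and all tumors were above them, with ratios of 111 (70.9 to 185) against tumor-bearing and 110 (69.9 to 183) against normal lungs. The edgeR adjusted p was 1.84e-06 against tumor-bearing and 2.67e-07 against normal lungs for Tfap2a, and 5.61e-06 and 5.82e-06 for Tfap2c. Both genes entered the test through the tumors, so these p add no support beyond the levels. Tfap2c exceeded Tfap2a in TPM within each tumor, by 1.99, 1.95 and 1.54 times. Together they made up nearly all AP-2 transcript of the tumors, where Tfap2c held 60.1 to 66.5% and Tfap2a 33.5 to 39.1% of the summed TPM of 5 AP-2 genes. Tfap2b was at 0 to 0.778 CPM in tumors and Tfap2d at 0 in all libraries of the fit. Tfap2a lies on chromosome 13 at 40715302 to 40738376 (minus strand, GRCm38) and overlaps the antisense genes Gm47061, Gm26688 and Gm47067, while Tfap2c lies on chromosome 2 at 172549593 to 172558622 (plus strand) and overlaps no other annotated gene. Whether the counting used strand is not given in the sources used here, so reads of Tfap2a and its antisense partners may be mixed.

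Promoter windows from RefSeq (GRCm38.p6) were found for 6 of the 10 members, 9 windows in all, and were searched on both strands for 4 short motifs. The windows run from 250 to 11 bases before a transcript start. The motifs were GCCNNNGGC for AP-2, GATAA for GATA factors, ACAAAG for SOX factors and AGGTCA, the half-site of the estrogen response element. No match in a window of a member overlapped another. Of 32851 windows of this length 13% held the AP-2, 22% the GATA, 16% the SOX and 13.5% the estrogen response letters at least once. A match is a description of letters and not evidence of binding. The distal start of Tfap2a, a window inside the annotated gene body but outside its exons that covers part of an exon of the antisense gene Gm26688, held none of the 4 motifs. It is shown because Tfap2a was among the factors with the clearest tissue difference. Sequences here run 5′ to 3′ on the strand of the gene, with motif matches in capitals and all else in lower case.
Tfap2a, chr13:40734931-40735170, minus strand: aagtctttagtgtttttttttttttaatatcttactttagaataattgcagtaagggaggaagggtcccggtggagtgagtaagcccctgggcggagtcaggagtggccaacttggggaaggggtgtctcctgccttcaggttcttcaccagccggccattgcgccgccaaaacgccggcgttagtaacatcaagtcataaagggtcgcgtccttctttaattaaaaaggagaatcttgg

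Gata3 and Elf5 are factors of the luminal lineage that were called higher in tumors and passed the filter on low counts in lung as well. Gata3, the zinc finger factor that maintains luminal identity in the gland and also directs T helper 2 cells and innate lymphoid cells, stood at 118, 155 and 113 CPM in tumors 6877, 6880 and 6881. It stood at 24.5, 26.1, 34.7 and 34.1 CPM in tumor-bearing lungs and at 12.6, 30.3, 28.5 and 28.2 CPM in normal lungs. Each tumor exceeded each lung, and normal lung 6886 was the lowest library. The log2 fold change was 1.97 against tumor-bearing lungs (SE 0.37, edgeR adjusted p = 0.00101) and 2.30 against normal lungs (SE 0.31, edgeR adjusted p = 9.09e-05). Gata3 lies on chromosome 2 at 9857078 to 9890034 (minus strand) and overlaps Gm13256 and 4930412O13Rik on the other strand and 9230102O04Rik on its own, so its counts may hold reads of these genes. Elf5, the ETS factor of alveolar progenitors, stood at 49.7, 37.7 and 50.7 CPM in the tumors. It stood at 9.64, 8.44, 8.48 and 6.87 CPM in tumor-bearing lungs and at 6.66, 7.01, 5.85 and 8.10 CPM in normal lungs. The lungs formed a narrow band below all tumors, and the log2 fold change was 2.25 against tumor-bearing lungs (SE 0.22, edgeR adjusted p = 1.02e-05) and 2.59 against normal lungs (SE 0.20, edgeR adjusted p = 1.12e-06). In TPM, Gata3 exceeded Elf5 by 4.13, 7.16 and 3.88 times in the 3 tumors. Tumor 6880 had the highest Gata3 and the lowest Elf5 of the 3. T cell and innate lymphoid genes, which mark the other cells that use Gata3, summed over 12 genes to 103, 39.8 and 133 CPM in the tumors, 60.0 to 73.3 CPM in tumor-bearing lungs and 43.5 to 78.1 CPM in normal lungs. Of these 12 genes 3 were called higher in tumors against normal lungs, where 24.5% of all tested genes were. Against tumor-bearing lungs 1 was called higher, where 22.6% of all genes were, and 0 were called lower in either comparison. The tumor with the lowest sum, 6880, had the highest Gata3, an order over 3 grafts of 1 line that is given as values only. Cd3e, which defines T cells, was at 5.92 to 12.6 CPM in tumors, 5.83 to 8.58 CPM in tumor-bearing lungs and 5.82 to 9.63 CPM in normal lungs. These ranges overlapped, but those of Icos and Cd8a in tumors lay above both kinds of lung. Icos was at 2.49 to 3.23 CPM in tumors, 0.675 to 1.73 in tumor-bearing and 0.819 to 1.46 CPM in normal lungs. Cd8a was at 4.13 to 11.95 CPM in tumors, 2.85 to 3.09 in tumor-bearing and 1.33 to 3.46 CPM in normal lungs. Il7r had a lower mean in tumors, 3.68 CPM, against 4.82 in tumor-bearing and 6.07 CPM in normal lungs. The part of lymphoid cells in the Gata3 level was not tested.

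The windows of Gata3 and Elf5 are given as those of the 2 factors called higher in tumors that passed the filter in lung as well. The Gata3 window held 3 AP-2 matches, which begin 246, 231 and 221 bases before the start. Of 32851 windows 80 (0.244%) hold 3 or more. The Gata3 window is 69.6% G and C, and that share is over windows of any base composition. It lies in the Gata3 gene body outside Gata3 exons, where the antisense gene Gm13256 has an exon. The window of the second Elf5 start held 1 GATA match, read as TTATC from 206 bases before the start, and the window of the first Elf5 start held none of the motifs. The Gata3 window held 16 CpG dinucleotides and the Elf5 window 8, where the median of all windows was 5.
Gata3, chr2:9878611-9878850, minus strand: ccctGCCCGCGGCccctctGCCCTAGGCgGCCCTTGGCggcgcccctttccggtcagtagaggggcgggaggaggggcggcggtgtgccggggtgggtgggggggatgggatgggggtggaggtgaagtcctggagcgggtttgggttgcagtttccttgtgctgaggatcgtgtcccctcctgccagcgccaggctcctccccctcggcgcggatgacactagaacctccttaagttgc
Elf5, chr2:103423818-103424057, plus strand: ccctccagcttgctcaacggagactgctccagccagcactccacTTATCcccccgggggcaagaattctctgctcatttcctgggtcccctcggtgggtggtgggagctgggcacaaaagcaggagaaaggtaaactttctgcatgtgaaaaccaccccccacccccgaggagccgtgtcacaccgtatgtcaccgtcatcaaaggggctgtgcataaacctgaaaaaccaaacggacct

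Foxa1, the pioneer factor that opens chromatin for the estrogen receptor in luminal cells and also acts in lung epithelium, was at a similar CPM in all 3 tissues. It stood at 16.0, 30.9 and 16.2 CPM in tumors, 26.6, 25.7, 17.2 and 21.9 CPM in tumor-bearing lungs, and 24.7, 16.9, 23.9 and 20.5 CPM in normal lungs. Tumors 6877 and 6881 were the lowest of the 11 libraries and tumor 6880 the highest, so the groups overlapped. The log2 fold change was −0.07 against tumor-bearing lungs (95% interval −0.77 to 0.63, edgeR adjusted p = 0.874) and below 0.01 in size against normal lungs (95% interval −0.65 to 0.66, edgeR adjusted p = 0.993); the sign against normal lungs turned under most other settings. As folds, the intervals run from 0.587 to 1.54 against tumor-bearing and from 0.638 to 1.58 against normal lungs, so a difference within those bounds may be missed. What differed was the family around it. Foxa1 held 98.4 to 99.6% of the summed TPM of Foxa1, Foxa2 and Foxa3 in tumors, 24.1 to 34.3% in tumor-bearing lungs and 28.6 to 38.0% in normal lungs. Foxa2, its partner in lung epithelium, had 0 counts in all 3 tumors, against 1215 counts over the tumor-bearing and 1032 over the normal lungs. With a floor of 3 counts over the group of tumors, Foxa2 was at least 288-fold lower than in tumor-bearing and at least 248-fold lower than in normal lungs. The Foxa1 window, shown for its pair of SOX matches, lies within the annotated gene body outside its exons and had 21 CpG dinucleotides. The 2 matches lie 145 and 137 bases before the start, on opposite strands.
Foxa1, chr12:57546122-57546361, minus strand: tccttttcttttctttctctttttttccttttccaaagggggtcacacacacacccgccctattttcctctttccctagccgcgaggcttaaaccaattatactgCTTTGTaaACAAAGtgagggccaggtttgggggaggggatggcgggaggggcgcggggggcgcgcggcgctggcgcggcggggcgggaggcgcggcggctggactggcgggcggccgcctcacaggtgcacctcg

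The T-box genes Tbx15 and Tbx3 differed between tumors and lungs in opposite directions. Tbx15, known for roles in skeletal and adipose development, stood at 68.0, 89.5 and 40.9 CPM in tumors 6877, 6880 and 6881. It stood at 0.0964, 0.124, 0.0642 and 0 CPM in tumor-bearing lungs, and at 0, 0, 0.0887 and 0 CPM in normal lungs. All tumors were far above the lungs, which held 3 counts in the tumor-bearing and 1 count in the normal group. The ratio was 1050 (exact 95% counting interval 359 to 5096) against tumor-bearing and 3106 (557 to 122750) against normal lungs, with edgeR adjusted p = 6.57e-06 and 3.47e-07. Tbx15 entered the test through the tumors, so these p add no support beyond the levels. The ratio to normal lungs rests on 1 count in normal lung 6888: without that mouse it was at least 788-fold (floor of 3 counts over the group), and over the 4 normal lung libraries of batch 2 it was 1571 (434 to 12982) on 2 counts. Tbx3, a repressor needed for mammary placodes and kept in hormone-sensing luminal cells, stood at 4.66, 1.40 and 1.24 CPM in the tumors. It stood at 83.1, 141, 177 and 161 CPM in tumor-bearing lungs and at 171, 102, 238 and 132 CPM in normal lungs. The lowest lung was far above the highest tumor, that of mouse 6877. The log2 fold change was −5.24 against tumor-bearing lungs (SE 0.45, edgeR adjusted p = 3.02e-06) and −5.64 against normal lungs (SE 0.43, edgeR adjusted p = 1.00e-06). Without tumor 6877, the tumor with the most Tbx3, the values were −6.02 and −6.42.

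Tbx15 held 87.5 to 91.1% of the summed TPM of 9 T-box genes in tumors, 0 to 0.0311% in tumor-bearing lungs and 0 to 0.0146% in normal lungs. Tbx3 held 1.24 to 5.17% in tumors, 28.0 to 35.0% in tumor-bearing lungs and 36.1 to 43.7% in normal lungs. Tbx2, the nearest relative of Tbx3, was also called lower in tumors, with 1.64 ± 0.419 CPM in tumors (SD, n = 3) against 308 ± 122 in tumor-bearing and 200 ± 78.0 CPM in normal lungs (SD, n = 4 each). Adipocyte genes, which mark a cell type in which Tbx15 is known to act, summed over 8 genes to 165, 411 and 477 CPM in tumors 6877, 6880 and 6881, 11.9 to 39.8 CPM in tumor-bearing lungs and 11.9 to 20.2 CPM in normal lungs. Of 7 tested adipocyte genes 7 were called higher in tumors against normal lungs and 6 against tumor-bearing lungs, and Lep was at 0 in normal lungs. Single adipocyte genes differed in level: in tumors Adipoq, which defines adipocytes, was at 6.21 to 18.1 CPM, Fabp4 at 66.9 to 171 CPM and Cfd at 48.0 to 151 CPM. Tumor 6881 had the highest adipocyte sum and the lowest Tbx15, an order over few grafts that is given as values only. The part of adipocytes in the Tbx15 level was not tested. Skeletal muscle genes, 6 in number, summed to 0.935 to 2.75 CPM in tumors, and Myh4 was at 0. Tbx3 on chromosome 5 at 119670669 to 119684724 overlaps the antisense gene Tbx3os1, and Tbx15 on chromosome 3 at 99240381 to 99354259 overlaps Gm43120, so some reads may belong to those genes.

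**Figure D2:**
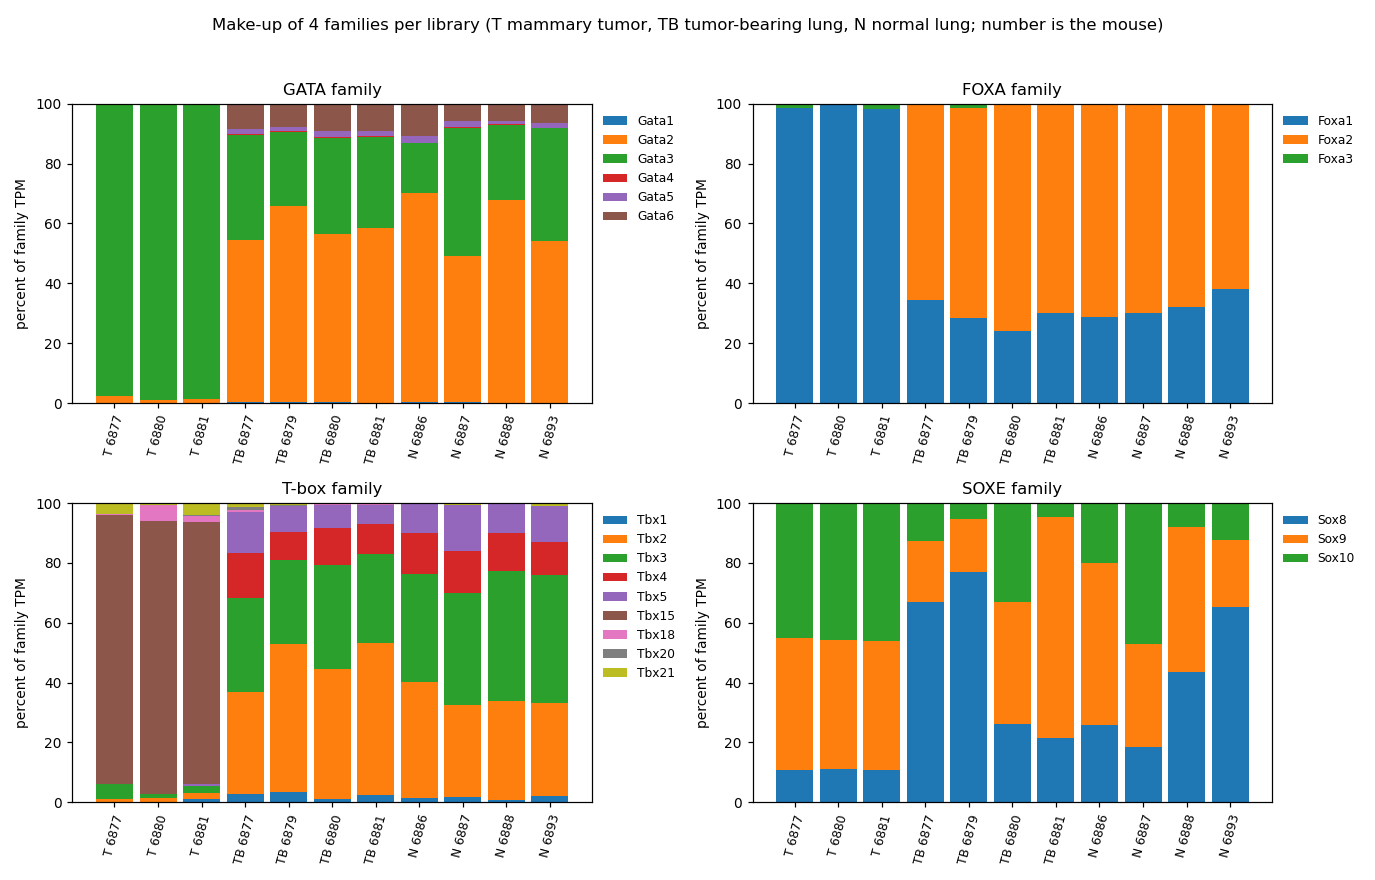
Share of each gene in the summed TPM of its family, in percent, for the GATA, FOXA, T-box and SOXE families in the 11 libraries of the fit (T mammary tumor, TB tumor-bearing lung, N normal lung, with the mouse number). Gata3, Foxa1 and Tbx15 make up 97.0 to 98.4%, 98.4 to 99.6% and 87.5 to 91.1% of their families in tumors, while Gata2, Foxa2 and the pair Tbx2 and Tbx3 lead in lungs.

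The same view of the GATA family showed Gata3 at 97.0 to 98.4% of its TPM in tumors, 24.5 to 35.1% in tumor-bearing lungs and 16.7 to 42.6% in normal lungs. Gata2, which serves blood and endothelial cells, took 1.16 to 2.44% in tumors, 54.1 to 65.7% in tumor-bearing and 48.7 to 69.7% in normal lungs. Elf5 shared the epithelial ETS genes with Ehf and Elf3 in all tissues, with 51.5 to 57.2% in tumors, 33.0 to 41.8% in tumor-bearing and 28.0 to 39.8% in normal lungs. Over all 25 listed relatives of the members, 19 were tested; 4 were called higher and 11 lower against normal lungs, and 3 higher and 10 lower against tumor-bearing lungs. Their median log2 fold changes were −2.25 and −2.25, where all genes had −0.04 and −0.10.

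Sox10 varied least of the 10 factors between tumors on the CPM scale, while in TPM Gata3, Tfap2a and Esr1 varied less relative to their means. It stood at 64.4, 65.7 and 61.8 CPM in tumors 6877, 6880 and 6881, a coefficient of variation of 3.15%. It stood at 0.386, 0.372, 0.321 and 0.0724 CPM in tumor-bearing lungs and at 0.460, 0.592, 0.177 and 0.364 CPM in normal lungs. All lungs held a few counts and none came near a tumor. The ratio was 235 (exact 95% counting interval 137 to 442) against tumor-bearing and 159 (101 to 264) against normal lungs, with edgeR adjusted p = 4.84e-07 and 7.57e-08. Sox10 too entered the test through the tumors, so these p add no support beyond the levels. Sox10 lies on chromosome 15 at 79154908 to 79165240 (minus strand). The other 2 SOXE genes, Sox8 and Sox9, were called higher in tumors too. Sox9, a partner of Sox10 in mammary progenitors, averaged 84.0 ± 3.57 CPM in tumors (SD, n = 3), against 1.09 ± 0.486 in tumor-bearing and 1.13 ± 0.466 CPM in normal lungs (SD, n = 4 each). Sox10 held 45.1 to 46.0%, Sox9 43.0 to 44.2% and Sox8 10.7 to 11.2% of the SOXE TPM in tumors. Other Schwann cell genes were not called higher with Sox10. Summed over 9 genes, Sox10 among them, they stood at 117 to 128 CPM in tumors, 271 to 296 CPM in tumor-bearing lungs and 239 to 349 CPM in normal lungs. Of 6 tested, 1, which is Sox10, was called higher in tumors and 3 lower in each comparison.

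The hormone receptors Esr1 and Pgr were, with Tbx3, the 3 least abundant members in tumors. Esr1, the estrogen receptor alpha, stood at 2.15, 3.43 and 2.88 CPM in tumors. It stood at 1.93, 2.61, 2.83 and 3.40 CPM in tumor-bearing lungs and at 4.44, 2.03, 3.02 and 1.91 CPM in normal lungs. The 3 groups overlapped, and the log2 fold change was 0.68 against tumor-bearing lungs (SE 0.38, edgeR adjusted p = 0.162) and 0.44 against normal lungs (SE 0.34, edgeR adjusted p = 0.308). Esr1 moved with preparation batch: within batch 2 the tumors stood at 2.15 to 3.43 CPM and the 4 normal lungs at 0.876 to 2.03 CPM, without overlap, and the log2 fold change was 0.92 (SE 0.37, edgeR adjusted p = 0.0630). With the batch 2 libraries of mice 6886 and 6888 in place of those of batch 1, Esr1 was called higher in tumors (log2 fold change 0.92, SE 0.34, edgeR adjusted p = 0.0400). Esr1 took 2.80 to 3.59% of the summed TPM of 6 steroid receptor genes in tumors, where the glucocorticoid receptor gene Nr3c1 took 84.0 to 94.3%.

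Pgr, the progesterone receptor and a classical target of estrogen in the gland, stood at 0.837, 1.01 and 1.40 CPM in tumors. It stood at 3.28, 5.71, 5.14 and 5.43 CPM in tumor-bearing lungs and at 3.83, 2.28, 3.81 and 3.46 CPM in normal lungs. All tumors were below all lungs, and Pgr fell by 1.72 on the log2 scale against tumor-bearing lungs (SE 0.37, edgeR adjusted p = 0.00258) and by 1.32 against normal lungs (SE 0.34, edgeR adjusted p = 0.00619). Within batch 2 it fell by 1.22 against normal lungs (SE 0.34, edgeR adjusted p = 0.0139). The 3 tumors held 38 counts of Pgr in all, the fewest of the called factors, so its relative counting error there was the largest. Between tumors Tbx3 varied more, with a coefficient of variation of 79.2% against 26.6% for Pgr. The Pgr window is shown as that of a gene that fell; it ends 11 bases before the start, lies outside the annotated gene, and held none of the 4 motifs and 4 CpG dinucleotides. No match says only that these letters are not in this window. The window of the first Esr1 start held 1 AP-2 and 1 GATA match, and that of the second start held none.
Pgr, chr9:8899583-8899822, plus strand: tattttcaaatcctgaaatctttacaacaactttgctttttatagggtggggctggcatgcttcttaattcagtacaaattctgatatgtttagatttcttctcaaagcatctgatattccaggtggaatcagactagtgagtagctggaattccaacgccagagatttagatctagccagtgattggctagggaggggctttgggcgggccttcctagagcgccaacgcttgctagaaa

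Genes that need or follow these receptors in mammary cells did not move as a block. Of 12 listed, Pgr among them, 9 were tested, and 3 were called higher and 4 lower in tumors against normal lungs, with a median log2 fold change of 0.34 where all genes had −0.04. Against tumor-bearing lungs 4 were called higher and 4 lower, with a median of 0.65 where all genes had −0.10. Prlr, the prolactin receptor, averaged 43.3 ± 11.8 CPM in tumors (SD, n = 3), against 1.67 ± 0.243 in tumor-bearing and 1.30 ± 0.490 CPM in normal lungs (SD, n = 4 each), with log2 fold changes of 4.37 (SE 0.38, edgeR adjusted p = 3.38e-06) and 4.85 (SE 0.33, edgeR adjusted p = 4.11e-07). The cell cycle gene Ccnd1 averaged 429 ± 29.7 CPM in tumors (SD, n = 3), against 119 ± 10.1 in tumor-bearing and 148 ± 36.9 CPM in normal lungs (SD, n = 4 each). Greb1, a cofactor gene induced by estrogen, was at 0 to 0.0779 CPM in tumors, against 2.53 to 17.4 CPM in tumor-bearing and 4.08 to 11.5 CPM in normal lungs. Wnt4, a ligand induced by progesterone in the gland, was at 1.01 to 1.20 CPM in tumors, against 4.46 to 6.51 CPM in normal lungs. Id4, which represses luminal genes in basal cells, averaged 0.301 ± 0.201 CPM in tumors (SD, n = 3), against 7.60 ± 3.10 CPM in tumor-bearing lungs (SD, n = 4). Outside the rule for named genes given under processing, Tnfsf11 and Cited1 of the same list had higher means in tumors. Tnfsf11 averaged 1.66 CPM in tumors, 0.247 in tumor-bearing and 0.167 CPM in normal lungs, and Cited1 1.15, 0.0161 and 0.0852 CPM.

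**Figure D3:**
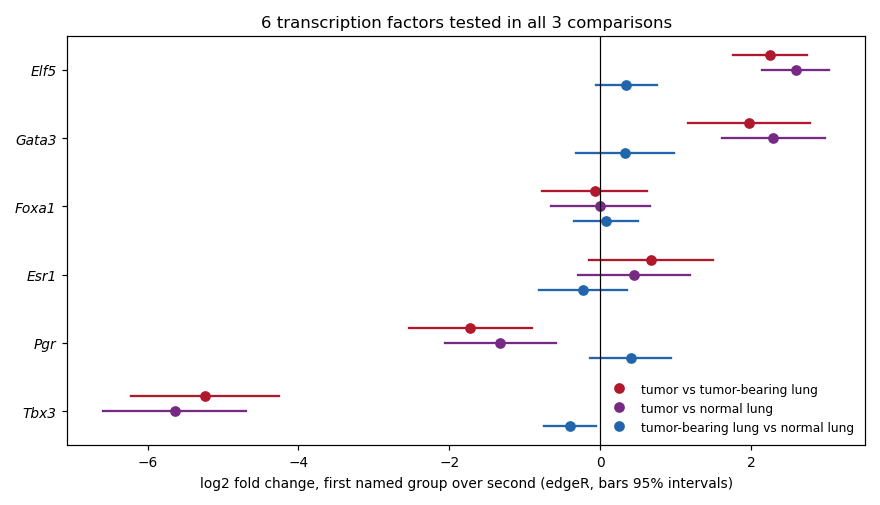
Log2 fold changes with 95% intervals from edgeR for the 6 factors that passed the filter on low counts in the lung comparison, first named group over second. Elf5 and Gata3 lie above 0 and Pgr and Tbx3 below 0 in both tumor comparisons, while all 6 estimates of tumor-bearing against normal lung lie between −0.40 and 0.40.

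Other transcription factors of the mammary epithelium were called in both directions. Of 22 listed, 19 were tested, and 9 were called higher and 4 lower in tumors in each of the 2 comparisons. Of all genes tested against normal lungs 24.5% were called higher and 24.7% lower, and against tumor-bearing lungs 22.6% and 23.7%. The medians of the list were 0.61 against normal and 0.63 against tumor-bearing lungs, where all genes had −0.04 and −0.10. Tbx2 was among those called lower, at the levels given above. Trps1, a GATA-type repressor of luminal cells, averaged 352 ± 23.8 CPM in tumors (SD, n = 3), against 27.1 ± 8.76 in tumor-bearing and 26.1 ± 4.63 CPM in normal lungs (SD, n = 4 each). Grhl1, a grainyhead factor of epithelia, stood at 21.4 ± 3.95 CPM in tumors (SD, n = 3), against 2.00 ± 0.879 in tumor-bearing and 2.56 ± 0.818 CPM in normal lungs (SD, n = 4 each). As a contrast, 12 lung transcription factors were listed, and 0 were called higher and 10 lower in tumors in each comparison. Nkx2-1, the factor that specifies lung epithelium, was at 0.0778 to 0.234 CPM in tumors, against 72.0 to 89.4 CPM in tumor-bearing and 58.3 to 86.5 CPM in normal lungs. Some genes stand on more than 1 of these lists, such as Sox9 and Tbx2.

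**Figure D4:**
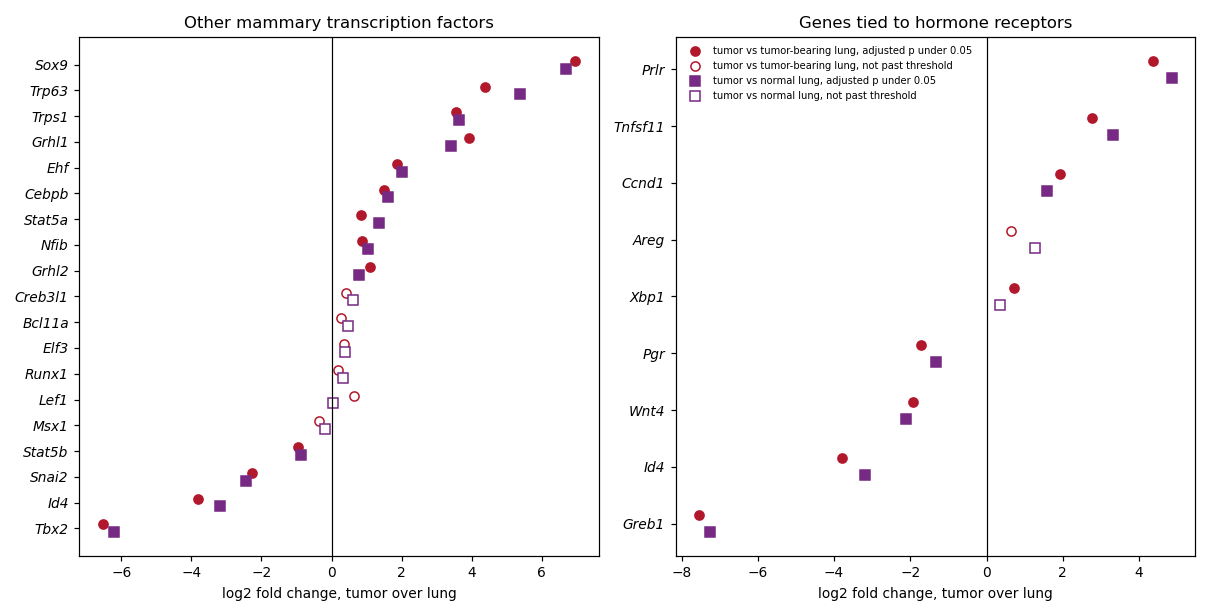
Log2 fold changes of tumors over tumor-bearing lungs (circles) and over normal lungs (squares) for the tested genes of 2 lists, other mammary transcription factors on the left and genes tied to hormone receptors on the right; filled symbols have an adjusted p under 0.05. Sox9, Trps1 and Grhl1 lie to the right, Tbx2 and Greb1 to the left.

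The effect of a distal tumor on the lung, the purpose stated for the series, was then examined for the 10 factors. In tumor-bearing against normal lungs, 0 factors were called. Tfap2c, Tfap2a, Tbx15 and Sox10 did not pass the filter on low counts, and the other 6 were tested with edgeR over 8 lungs, where 0.012% of 16727 genes were called higher and 0.0239% lower, which is 2 and 4 genes. Those counts rest on single libraries: edgeR called 59 genes higher and 162 lower without tumor-bearing lung 6877, and 0 and 0 without tumor-bearing lung 6879, 6880 or 6881 or normal lung 6886, with 1512 to 2158 genes at an unadjusted p under 0.05 in those 4 fits. Without normal lung 6887 it called 7 and 9, without 6888 2 and 2, and without 6893 5 and 1. By limma voom 0 of the 6 factors were called as well, by DESeq2, which gave an adjusted p to Elf5, Gata3, Foxa1 and Tbx3 alone, 0 of those 4, and at an unadjusted p under 0.05 in edgeR there was 1, Tbx3, where 14% of all genes had such a p. Tbx3 stood at 83.1, 141, 177 and 161 CPM in tumor-bearing lungs and at 171, 102, 238 and 132 CPM in normal lungs, with a log2 fold change of −0.40 (SE 0.16, edgeR adjusted p = 0.312). The groups overlapped; within batch 1 the tumor-bearing lungs stood at 141 to 177 and the normal lungs at 171 to 238 CPM, and within batch 2 the single tumor-bearing lung stood at 83.1 and the normal lungs at 102 to 132 CPM. The log2 fold change was 0.35 for Elf5 (95% interval −0.06 to 0.76, edgeR adjusted p = 0.424), 0.33 for Gata3 (−0.32 to 0.97, edgeR adjusted p = 0.640) and 0.08 for Foxa1 (−0.35 to 0.50, edgeR adjusted p = 0.885). It was 0.40 for Pgr (−0.13 to 0.94, edgeR adjusted p = 0.473) and −0.23 for Esr1 (−0.82 to 0.36, edgeR adjusted p = 0.721). The groups overlapped in CPM for all 6, where 2.65% of all genes had groups apart in the higher and 3.04% in the lower direction.

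The 4 factors with few counts in lung were compared between the 2 kinds of lung one by one. An exact permutation test of the difference in mean CPM (2-sided, 4 lungs against 4, 70 arrangements, smallest possible p = 0.0286) gave p = 0.429 for Tfap2c, 0.943 for Tfap2a, 0.257 for Tbx15 and 0.371 for Sox10, and 0.571, 0.943, 0.571 and 0.571 after Benjamini-Hochberg adjustment over these 4 tests. The arrangements take no account of preparation batch, to which 3 of the 4 tumor-bearing and 2 of the 4 normal lungs belong as batch 1. In edgeR with batch as a term and no filter on low counts, 0 of the 10 factors were called between the lungs; the lowest p of these 4 was that of Tfap2c (unadjusted p = 0.0251, edgeR adjusted p = 0.390), whose counts in normal lungs come mostly from mouse 6888. Tfap2c averaged 0.0341 ± 0.0396 CPM in tumor-bearing and 0.304 ± 0.512 CPM in normal lungs (SD, n = 4 each). Tbx15 averaged 0.0712 ± 0.0534 CPM in tumor-bearing and 0.0222 ± 0.0443 CPM in normal lungs (SD, n = 4 each), on 3 counts against 1. Set against the tumors, tumor-bearing lungs held 0.0831% of the tumor level of Tfap2c (exact 95% counting interval 0.0101 to 0.300%), 0.0952% of that of Tbx15 (0.0196 to 0.278%), 0.425% of that of Sox10 (0.226 to 0.727%) and 0.900% of that of Tfap2a (0.542 to 1.41%). Tumor-bearing lungs averaged 0.402 CPM of Tfap2a and 0.288 CPM of Sox10, normal lungs 0.407 and 0.398 CPM, and these differences did not pass the permutation test.

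The lungs of mice 6886 and 6888, prepared in both batches, show how far the level of a factor differed between 2 libraries of 1 lung. Elf5 and Foxa1 were close between the 2 libraries of a lung, with ratios of batch 1 to batch 2 of 0.916 and 1.06 for Elf5 and of 1.11 and 1.18 for Foxa1. Esr1 was higher in batch 1 in both lungs, by 3.52 times (58 against 17 counts) and 3.44 times (34 against 10 counts). Pgr was higher by 1.61 times in both, and Tbx3 by 1.37 and 1.99 times. Gata3 went in opposite directions, with 0.595 in mouse 6886 and 1.81 in mouse 6888. These are ratios of 2 libraries each and have no replicate error beyond the agreement between the 2 mice.

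**Figure D5:**
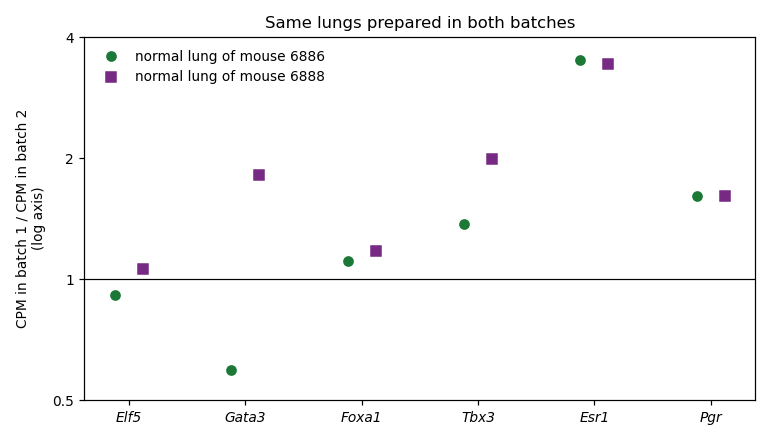
Ratio of CPM in batch 1 to CPM in batch 2 for the same normal lung, on a log axis, in mouse 6886 (circles) and mouse 6888 (squares), for the 6 factors that passed the filter on low counts in the lung comparison. Esr1 stands at 3.52 and 3.44, Pgr at 1.61 in both, and Gata3 on either side of 1.

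The genes whose log2 CPM ran most like each factor over the 11 libraries were named by the highest Pearson r among 13409 genes with a name and a mean log2 CPM of at least 0. The 11 points share tissue, batch and depth, and for the 8 called factors tumors and lungs stand apart, so these r are descriptions over 2 separate sets of libraries. Nearest to Tfap2c were Got2, Fam3c and Ncl (r of 0.992 and 0.990 for Got2 and Fam3c), and nearest to Tfap2a were Mcm7, Mmp3 and Nup85 (0.994 for Mcm7). Elf5 ran most like Car12, Bub1b and Cd14 (0.992 for Car12), Tbx15 most like Nasp, H2afx and Eno1b (0.994 for Nasp), and Sox10 most like Chaf1a, Col9a3 and Hist1h2ae (0.996 for Chaf1a). Gata3 ran most like Slc35a3, Ube2f and Usp14, with r of 0.976 for Slc35a3. Of the factors low in tumors, Tbx3 ran most like Scube2, Tspan8 and Hsd17b11 (0.997 for Scube2) and Pgr most like Adra1d, Rnf167 and Prdm11 (0.982 for Adra1d). For the factors not called in either comparison the highest r were lower, at 0.817 for Uckl1os, the gene nearest to Foxa1, and 0.913 for Atp8b1, the gene nearest to Esr1.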

How the data were processed

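The mouse was the replicate: 3 tumors, 4 tumor-bearing and 4 normal lungs, with the batch 1 library for normal mice 6886 and 6888. The authors deposited estimated counts (expected counts) and TPM per gene for 13 libraries; the submitters' processing notes list the tools Salmon and DESeq2 1.18.1 and the genome mm10, with no version for Salmon. The ratio of the deposited counts to TPM was constant but for 1 factor per library (largest log2 deviation 1.13e-12 over 17718 genes), so counts carry an average gene length. Of 46679 IDs, 46201 were named from GENCODE M21, and 0 columns of values were left unused. Total RNA of snap-frozen tissue was depleted of ribosomal RNA, and fragmentation depended on RNA quality, per the labels' protocols, but the quality of single libraries is not given in the sources used here.

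Counts were rounded and fitted in R 4.3.3 with the quasi-likelihood model of edgeR 4.0.16 (TMM factors, filterByExpr) on group and preparation batch, over 11 libraries for tumors and 8 for lungs, with Benjamini-Hochberg adjustment over all genes at 0.05. The standard error is the log2 fold change divided by the root of F. Log2 CPM used a prior count of 2. Libraries held 8321037 to 13982903 estimated counts. Alternatives were DESeq2 1.42.0, limma 3.58.1 (voom, and log2 TPM with pseudocounts of 1 and 0.1), other factors and filters, other uses of repeat libraries and batch, the mouse as a block, and leaving out each library; the fits of batch 2 alone for tumors against tumor-bearing lungs and for lungs were added after seeing the data. Ratios of genes near 0 use summed counts with an exact 95% interval. The 3 mice with both tissues pair tumor and lung; residuals of the pairs correlated at 0.179, 0.0355 and −0.133 over 18297 genes. Scripts were tested on simulated data. The members, gene lists, rule for named genes (all members, up to 4 genes per list with the smallest p, and the 3 most alike genes) and the tests were chosen with earlier results of these data known; families and repeat libraries are described by value. Promoter sequences are from RefSeq. Single levels of some marker genes are not reported here.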

Additional observations from a re-analysis of the deposited data

Results flagged for a closer look

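In 20 groups of 4 lungs, 3 held a library far from the other 3 (gap over range above Dixon's critical value of 0.829), a rule that chance meets in about 1 in 20 groups of continuous values. That rate does not hold for groups with a few counts, as those of Tfap2c and Tbx15 here, so the 3 are given as values and not set against it. Tfap2c stood at 1.06 CPM in normal lung 6888 (12 counts), against 0 to 0.153 CPM in the other normal lungs; its batch 2 repeat held 0 counts. Gata3 stood at 12.6 CPM in normal lung 6886, against 28.2 to 30.3 CPM in the others, and at 21.2 CPM in the repeat of that lung. Tbx15 stood at 0.0887 CPM in normal lung 6888, which is 1 count, against 0 in the others.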

How the results depend on the processing

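The mouse as a replicate block, for tumors against tumor-bearing lungs, called 6 members higher and 2 lower and changed no call (log2 fold changes 2.41 for Elf5, 2.00 for Gata3, −6.05 for Tbx3, −2.13 for Pgr); batch and tissue cannot be told apart in 2 of those 3 mice. Leaving out each library gave 6 higher and 2 lower in both tumor comparisons and 0 and 0 between lungs. Members called lower numbered 1 instead of 2 with limma on log2(TPM + 1) in both tumor comparisons and on log2(TPM + 0.1) against tumor-bearing lungs, where Pgr was lost (log2 differences −0.06, −0.03 and −0.28). Of the values of single members under other settings, 274 kept direction and side of the threshold (2 of them, Esr1 and Pgr between lungs in DESeq2, without an adjusted p), 24 reversed, 1 (Esr1, 0.92) gained and 3 lost a call; with single libraries left out 258 kept both and 10 reversed. No reversed value passed the threshold. Foxa1 against normal lungs reversed to −0.011 (RLE factors), −0.018 (no filter), −0.00049 (DESeq2), −0.043 (voom), −0.11 and −0.26 (TPM with 1 and 0.1), −0.034 (no batch term), −0.0053 (repeats summed) and −0.026 (protein-coding genes), and ranged from −0.38 to 0.17 without single libraries. Against tumor-bearing lungs Foxa1 was 0.13 and 0.28 on TPM and −0.46 to 0.34 without single libraries. Esr1 against normal lungs was −0.017 without the batch term. Between lungs, the TPM fits with 1 and 0.1 gave −0.12 and −0.29 for Elf5, −0.24 and −0.31 for Gata3, −0.24 and −0.54 for Foxa1 and −0.024 and −0.14 for Pgr, where the median of all genes moved to −0.23 and −0.54. Foxa1 was −0.15 in batch 1 alone and −0.16 to 0.19 without single libraries, Gata3 −0.036 to 0.64, with the lowest value without normal lung 6886, and Esr1 0.35 with batch 2 repeats, 0.011 with repeats summed and 0.35 in batch 2 alone. The causes were not tested. The lung comparison called 6 genes of all in edgeR, 134 higher and 311 lower in DESeq2 and 92 and 183 with no filter; on log2(TPM + 1) the tumors had 2643 higher and 3879 lower against normal and 4142 and 1180 against tumor-bearing lungs, where edgeR had 4490 and 4524, and 4128 and 4343. Depth limits Tfap2c and Tbx15 in lung, where groups held 1 to 14 counts, and 3 tumors of 1 line limit what the spread covers.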
